A study of Mus musculus with 31 samples.

Results

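Type I interferon response genes were followed in 4 kinds of myeloid cell isolated from the mouse heart, in animals left at steady state (SS) and in animals with a myocardial infarction (MI). The genes were a fixed list of 37 symbols, and every symbol was found in the count data of all 31 libraries, out of 24421 gene symbols measured. By role they were 28 effectors, 6 sensors of nucleic acid (Ddx58, Ifih1, Dhx58, Zbp1, Ifi203 and Ifi204) and 3 transcription factors (Irf7, Irf9 and Stat2). All 37 passed the filter on low counts, which kept 13039 genes.

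The mice were Balb/c animals of 8 to 12 weeks, with no transgene or deletion named in the labels, and infarction was made by tying off the left anterior descending coronary artery for good. The tissue was dissociated with Liberase and DNase, and sorting by flow cytometry gave cDC1 and cDC2, the 2 lineages of conventional dendritic cells, monocyte-derived cells positive for CD11c (moDC) and monocyte-derived cells negative for CD11c (macrophages). Each of the 8 groups had 4 libraries, except MI cDC2 with 3. The interval after ligation, the sex of the mice, the sorting antibodies and any pooling of hearts were not stated in the sources used here, so p-values measure the spread between these samples, which may be technical, and a difference in handling of SS and MI hearts cannot be told apart from MI. These are bulk samples, so a lower level of a gene can mean fewer cells that express it or less RNA per cell, and the 2 cannot be told apart.

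Libraries held 9148624 to 16531349 reads in genes. Defining markers matched the labels: Xcr1, a chemokine receptor of cDC1, had a mean of 909.7 CPM (counts scaled to equal library totals) in SS cDC1 and at most 3.53 in SS libraries of the other 3 cell types, and Cd209a, a lectin of cDC2, had 2257 in SS cDC2 against 405.9 in moDC. C1qa, a complement subunit of macrophages, had 5265 in SS macrophages and 4.01 in SS cDC1. The CD11c gene Itgax had 337 CPM in SS moDC and 7.50 in SS macrophages. One SS moDC library, replicate 3, stood apart with the plasmacytoid dendritic cell genes Siglech at 68.1 and Ccr9 at 65.6 CPM, against at most 18.5 and 9.20 in the other SS moDC libraries. It also had the highest SS moDC sums of neutrophil genes (376.3 CPM, group median 158), classical monocyte genes (2415, median 1651) and T or NK cell genes (21.1, median 11.8). Sums of endothelial, mural, B cell, fibroblast and cardiomyocyte genes were highest in other SS moDC libraries.

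Type I interferons are secreted proteins that bind a receptor made of Ifnar1 and Ifnar2. The kinases Jak1 and Tyk2 then act on Stat2, which joins Irf9 in a complex that binds the interferon-stimulated response element (ISRE) in the promoters of interferon-stimulated genes. The products of these genes block viral RNA and protein synthesis, sense foreign or misplaced nucleic acid, or, like Usp18, damp the receptor. Irf7, itself an interferon-stimulated gene, drives interferon gene transcription. In the infarcted heart, DNA from dying cells taken up by phagocytes is a known trigger of this pathway.

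Promoter sequence is shown here for some members, since the ISRE is where the pathway meets its targets. Among those shown, Isg15 and Oas1a passed no test of MI against SS in any cell type. RefSeq promoter windows (GRCm38.p6, from 250 bases before to 50 bases after a start, 300 bases in all) were matched by symbol for 27 of the 37 members. The core ISRE letters GAAANNGAAA, or TTTCNNTTTC on the other strand, were searched in both directions, and overlapping matches were counted. At least 1 match lay in the windows of 14 of these 27 members (51.9%), against 3.99% of 27025 genes with a window. Counted by window, 15 of 33 member windows (45.5%) and 3.44% of all 32851 windows held it. The stretches below run 5′ to 3′ on the gene's strand, and capitals mark the matched letters.
Ifit1, chr19:34640779-34640838, plus strand: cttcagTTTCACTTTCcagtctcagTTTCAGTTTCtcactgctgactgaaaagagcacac
Isg15, chr4:156200850-156200909, minus strand: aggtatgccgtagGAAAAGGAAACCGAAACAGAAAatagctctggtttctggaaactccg
Rsad2, chr12:26456538-26456597, minus strand: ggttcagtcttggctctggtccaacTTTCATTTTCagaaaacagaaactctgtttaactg
Oas3, chr5:120777700-120777759, minus strand: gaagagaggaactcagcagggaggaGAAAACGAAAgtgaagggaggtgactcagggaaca
Oas1g, chr5:120887614-120887673, minus strand: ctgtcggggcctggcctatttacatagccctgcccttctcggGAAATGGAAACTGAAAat
Oas1a, chr5:120907526-120907585, minus strand: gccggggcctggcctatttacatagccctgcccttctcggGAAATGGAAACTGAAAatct

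Isg15 held 3 overlapping matches and Ifit1 held 2 apart from each other, while Oas1g and Oas1a, neighbouring copies on chromosome 5, carried the same pair of overlapping matches. The other 13 members with a window had no match. Among them Plscr1, Ifit2, Irf7 and Oasl1 passed a test of MI against SS, as did some members with a match. The 100 bases before the starts of Ifit2 and Oasl1 are shown for comparison.
Ifit2, chr19:34550594-34550693, plus strand: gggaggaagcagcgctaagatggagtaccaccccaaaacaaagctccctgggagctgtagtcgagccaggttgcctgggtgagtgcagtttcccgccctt
Oasl1, chr5:114923140-114923239, plus strand: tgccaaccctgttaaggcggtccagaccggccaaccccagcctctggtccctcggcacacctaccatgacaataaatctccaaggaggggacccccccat
A match is a description of the letters, and a window without one says only that these letters were not found there.

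In SS hearts the members were seldom highest in cDC2, and most had their highest level in macrophages or cDC1. Of the 37, 16 had their highest mean in macrophages, 13 in cDC1, 8 in moDC and none in cDC2. The lowest mean was in cDC2 for 17 members, in cDC1 for 14 and in macrophages for 6, so cDC1 was often at either end. The median of the members' mean levels was 50.9 CPM in macrophages, 51.7 in moDC, 32.8 in cDC2 and 31.7 in cDC1. Per kilobase of exon, which allows genes to be compared, the highest members in SS macrophages were Oas1a (91.1 CPM per kb), Bst2 (89.7) and Irf7 (56.5), and in SS cDC1 they were Ifi35 (76.6), Irf7 (68.9) and Ifi44 (53.3). Oas1a makes the 2-5A messenger that activates RNase L, Bst2 is tetherin, which holds budding virions on the membrane, and Ifi35 and Ifi44 are cytoplasmic interferon-stimulated proteins.

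**Figure D1:**
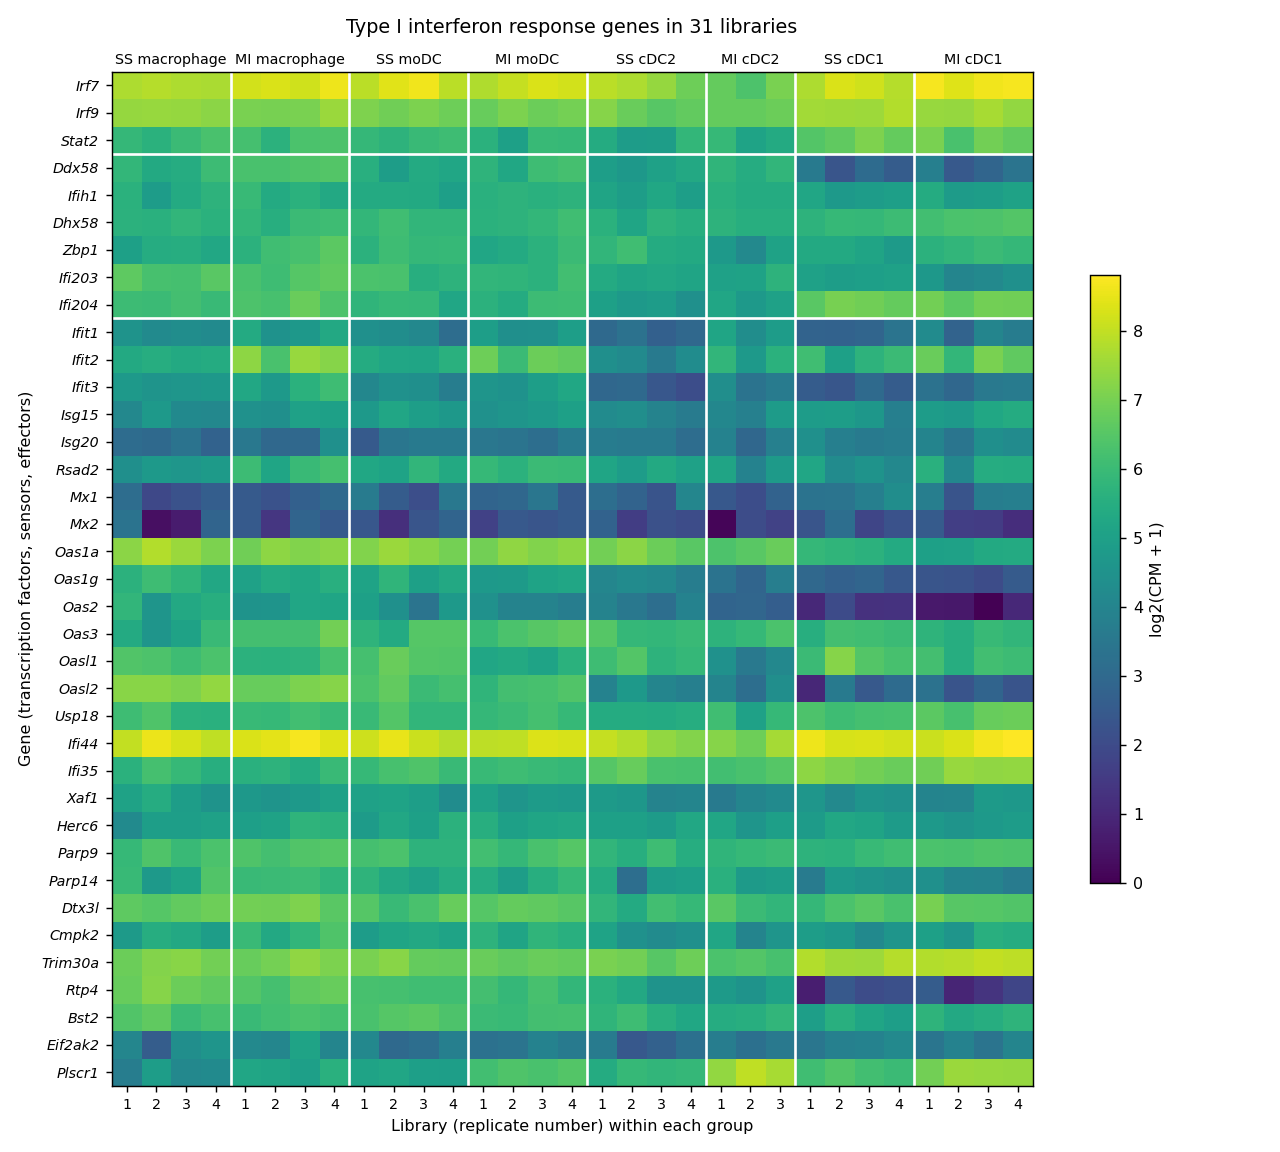
Level of each of the 37 members in each of the 31 libraries, set out by group and ordered by role. Colour is CPM on a log2 scale that all genes share. By group mean, cDC2 is the lowest cell type for 17 members in SS and for 20 in MI, and cDC1 for 14 in each state. Rtp4, Oas2 and Ddx58 have their lowest means in cDC1 in both states.

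The transcription factors Stat2 and Irf9 had their highest means in cDC1. Stat2 in SS had 87.6, 99.04, 135.4 and 105.3 CPM in the 4 cDC1 libraries and 42.3, 28.2, 29.2 and 55.8 in the 4 cDC2 libraries, without overlap. Its level was 2.74-fold higher in cDC1 (adjusted p = 5.8e-06 by edgeR's quasi-likelihood test with Benjamini-Hochberg adjustment over all genes, which all adjusted p-values below share). Irf9, the DNA-binding partner of Stat2, was 195.2 ± 17.4 CPM in SS cDC1 and 112.6 ± 24.3 in SS cDC2 (SD, n = 4 each), a 1.73-fold difference (adjusted p = 6.3e-06). In SS moDC, Irf9 was 136.2, 118.6, 134.2 and 115.3 CPM, all below the macrophage values of 169.0, 173.6, 171.4 and 152.9, and 1.32-fold lower (adjusted p = 0.0281). Irf7 in SS was 302.3 CPM in moDC, 260.1 in cDC1, 213.2 in macrophages and 184.0 in cDC2. The moDC mean included 394.5 CPM in replicate 3, the library with high Siglech and Ccr9, beside 237.5, 337.3 and 239.7 in the other 3. The part of RNA from plasmacytoid dendritic cells or other cells in that value was not tested.

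Among sensors, Ddx58 was lower and Ifi204 higher in SS cDC1 than in SS cDC2. Ddx58 encodes RIG-I, a sensor of viral RNA. It had 11.2, 3.98, 7.44 and 4.97 CPM in the 4 SS cDC1 libraries and 29.4, 24.9, 31.9 and 38.5 in SS cDC2, so that every cDC1 value lay below every cDC2 value and the level was 4.46-fold lower (adjusted p = 2.1e-07). Ifi204, a DNA sensor of the Ifi200 family, went the other way, with 92.6, 128.1, 119.9 and 106.1 CPM in SS cDC1 and 30.8, 25.4, 28.2 and 20.5 in SS cDC2, 4.25-fold higher in cDC1 (adjusted p = 1.6e-11). In MI macrophages Ifi204 had 81.2, 75.6, 109.0 and 80.9 CPM and in MI moDC 49.1, 42.0, 64.7 and 66.9, 1.56-fold lower in moDC without overlap (adjusted p = 0.0101). Ifih1 (MDA5), which senses long double-stranded RNA, had a narrow range of mean levels across the 8 groups, from 30.2 CPM in SS cDC1 to 49.1 in MI moDC.

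The largest difference in each comparison of neighbouring cell types was that of an effector, the role with 28 of the 37 members. By share the order was the reverse between SS cDC1 and SS cDC2. There 39.3% of effectors, 66.7% of the 6 sensors and 100% of the 3 transcription factors passed. Of all genes, 11.7% were higher and 16.4% lower in cDC1. Rtp4, an interferon-induced chaperone of G protein-coupled receptors, had 108.9, 147.4, 112.1 and 100.7 CPM in SS macrophages, 74.9, 73.4, 67.9 and 68.4 in SS moDC, 48.5, 38.4, 22.2 and 22.2 in SS cDC2 and 0.661, 4.45, 3.17 and 3.41 in SS cDC1. The step from cDC2 to cDC1 was 11.6-fold (adjusted p = 1.1e-08) and the step from moDC to cDC2 was 2.17-fold (adjusted p = 0.0155). The libraries of macrophages and moDC did not overlap, but that difference did not pass the test (adjusted p = 0.137). Oas2, a second 2-5A synthetase, had 1.02, 3.03, 1.39 and 1.46 CPM in SS cDC1 and 14.5, 10.4, 8.10 and 13.9 in SS cDC2, 6.88-fold lower in cDC1 (adjusted p = 1.9e-06). Oasl2, a 2-5A synthetase-like protein, dropped between moDC (78.3, 103.6, 63.0 and 73.4 CPM) and cDC2 (14.0, 26.1, 15.1 and 13.0), a 4.67-fold difference without overlap (adjusted p = 1.2e-04).

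**Figure D2:**
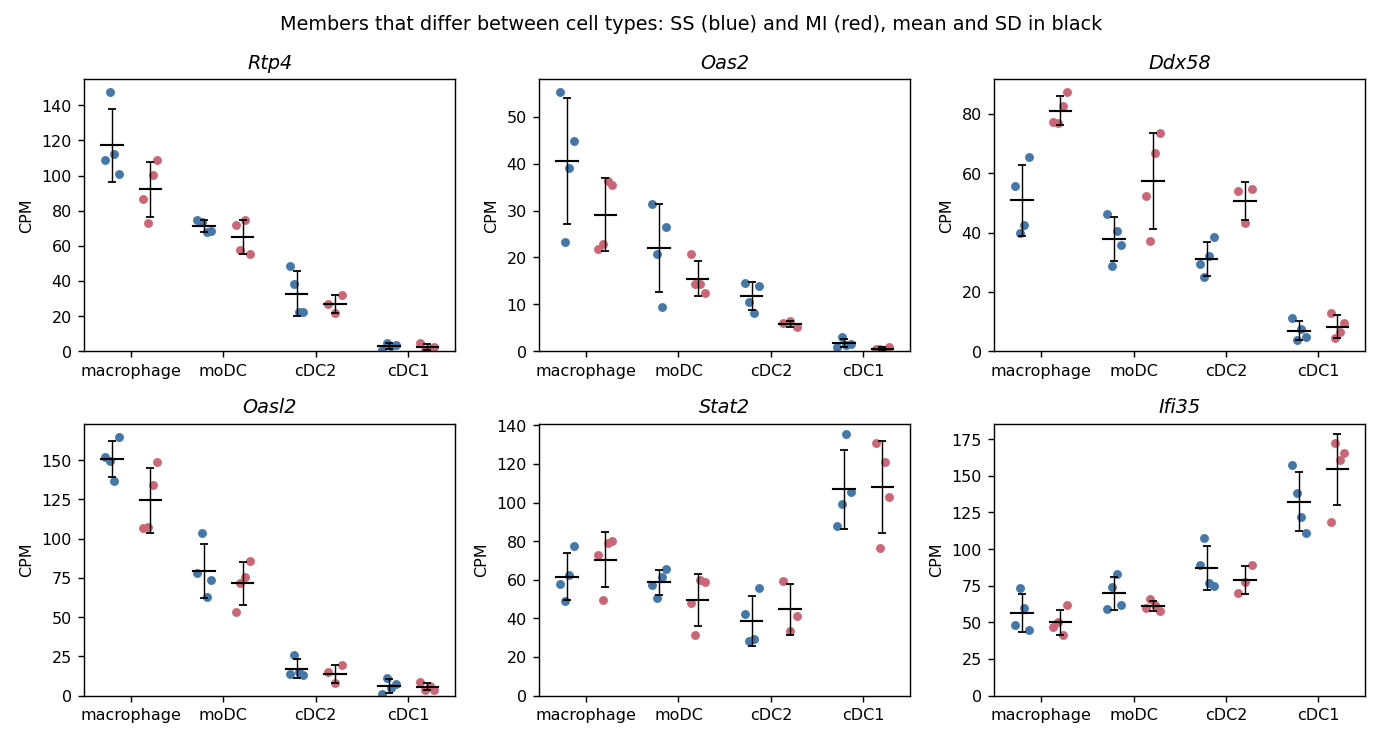
CPM of Rtp4, Oas2, Ddx58, Oasl2, Stat2 and Ifi35 in each library by cell type (points, SS blue and MI red), with the mean and SD in black. Rtp4 falls from a mean of 117.3 CPM in SS macrophages to 2.93 in SS cDC1, whereas Stat2 and Ifi35 are highest in cDC1.

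Between SS cDC2 and SS moDC the members leaned one way. Of 37, 14 were lower in cDC2 and 1, Plscr1, was higher, while 8.05% of all genes tested were lower and 7.35% higher. The median log2 difference of the members was -0.54, against -0.04 over all genes tested. Ifit3 was 3.26-fold lower in cDC2 (adjusted p = 8.0e-05), with 6.77, 7.03, 4.27 and 3.28 CPM against 16.0, 21.1, 20.0 and 12.3 in moDC. Oas1g was 2.52-fold lower (adjusted p = 3.7e-05), with 15.5, 17.99, 16.4 and 12.4 CPM against 33.4, 53.8, 31.3 and 38.5. The MI libraries gave 15 members lower and 1, again Plscr1, higher in cDC2, beside 5.66% and 4.49% of all genes, and Oasl2 was again the member with the largest difference (5.09-fold, adjusted p = 3.0e-04). That MI count fell to 6 members in all without MI cDC2 replicate 2.

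Between SS cDC1 and SS cDC2, 10 members were higher and 8 lower in cDC1, beside 11.7% and 16.4% of all genes. In MI, 13 were higher and 9 lower, beside 10.6% and 16.2%. The 3 transcription factors were higher in cDC1 in both states. Members higher in cDC1 in MI included Oasl1 (3.89-fold, adjusted p = 3.7e-07), Irf7 (3.73-fold, adjusted p = 1.0e-08) and Trim30a (2.97-fold, adjusted p = 5.9e-10), and members lower included Oas2 (11.6-fold, adjusted p = 1.0e-06) and Rtp4 (10.97-fold, adjusted p = 4.9e-08). Between macrophages and moDC, 2 members were higher and 1 lower in SS moDC, beside 8.56% and 4.34% of all genes, and 1 was higher and 2 lower in MI moDC, beside 6.65% and 4.17%. These counts of 3 in SS and 3 in MI were 8 and 6 with the replicate number within each state as a block. The MI count was 10 in a fit of only the 2 groups. Shares of all genes under these other fits are not given, so these counts cannot be set against them. Each count of 3 fell to 1 when a single library was left out. The library was SS macrophage replicate 1 or 3 in SS, and MI moDC replicate 2 or MI macrophage replicate 3 in MI. Oas3, the largest 2-5A synthetase, was one of those higher in SS moDC (1.71-fold, adjusted p = 0.0492), with overlapping libraries.

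After MI, a few members rose and the bulk of the list did not pass the test. In macrophages 7 of 37 rose and 0 fell by edgeR's test, while 4.01% of all genes rose and 3.37% fell. At unadjusted p under 0.05, 12 members were higher and 1 lower there, and DESeq2 called 8 higher and 0 lower. No shares of all genes are given for these counts. In moDC 2 rose and 1 fell, beside 1.52% and 3.32% of all genes. In cDC2 4 rose and 5 fell, beside 4.41% and 6.63%, and in cDC1 5 rose and 2 fell, beside 2.16% and 6.72%. The members' median log2 difference was 0.22 in macrophages, -0.03 in moDC, -0.06 in cDC2 and 0.12 in cDC1, against -0.03 over all genes in each. Every MI library lay above every SS library for 9 members in macrophages, 4 in moDC, 6 in cDC2 and 5 in cDC1, beside 6.54%, 4.85%, 10.9% and 5.05% of all genes. Every MI library lay below for 0, 2, 4 and 1 members, beside 7.57%, 6.96%, 12.2% and 8.01%. The members that passed the test were 14 in at least 1 cell type, and 23 passed in none. No share of all genes is given for this pooled count, so it cannot be set against one. The macrophage count fell to 4 without MI macrophage replicate 4, and the cDC1 count fell to 1 without MI cDC1 replicate 3.

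**Figure D3:**
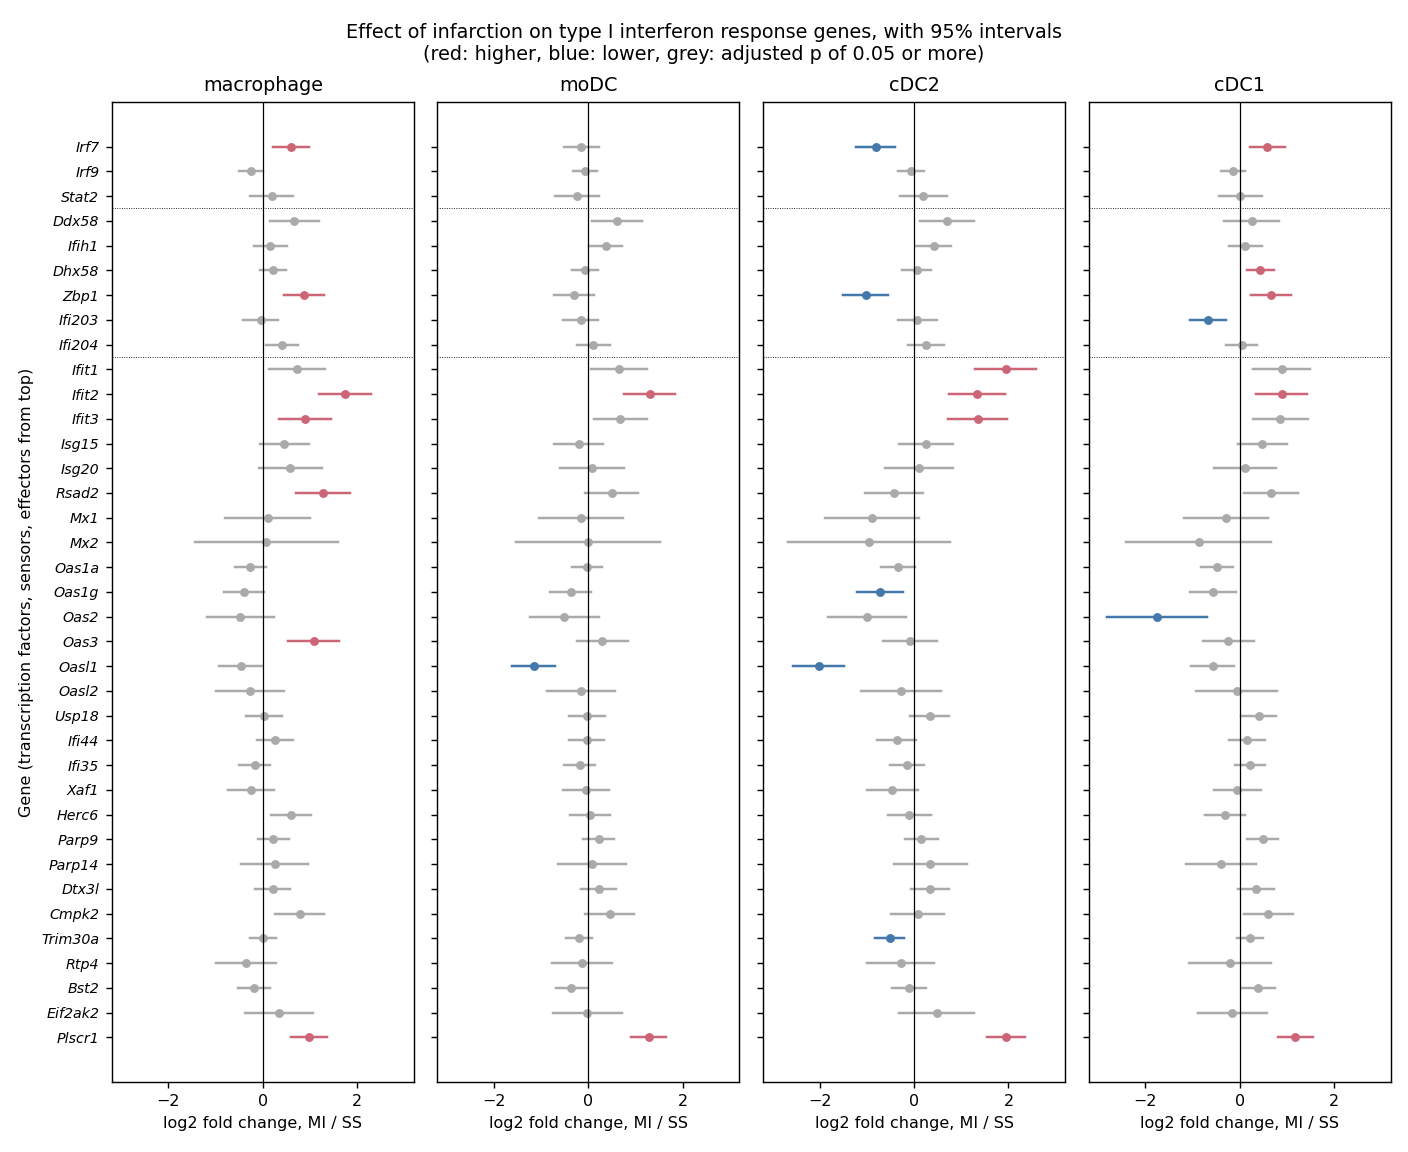
Log2 difference of MI minus SS for each member in the 4 cell types, with its 95% confidence interval and calls at adjusted p under 0.05 marked. Plscr1 and Ifit2 lie to the right of 0 in all 4 cell types, and Irf7 and Zbp1 lie to the right in macrophages and cDC1 and to the left in cDC2.

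Plscr1 rose in all 4 cell types. It encodes phospholipid scramblase 1, a membrane protein induced by interferon that restricts viral entry (chromosome 9, 92249750 to 92272278, plus strand, GRCm38). In cDC2 it went from 42.3, 58.8, 54.7 and 57.3 CPM in SS to 165.7, 251.7 and 199.7 in MI, a 3.86-fold rise (adjusted p = 3.0e-08). In moDC it went from 33.3, 36.1, 30.5 and 29.9 to 69.2, 82.1, 77.4 and 86.1 (2.42-fold, adjusted p = 3.3e-05). In no cell type did the SS and MI libraries of Plscr1 overlap. The rise was 2.26-fold in cDC1, from 71.1 ± 8.68 to 160.5 ± 27.0 CPM (adjusted p = 3.7e-05), and 1.97-fold in macrophages, from 18.9 ± 7.15 to 37.0 ± 7.12 (SD, n = 4; adjusted p = 8.7e-04). These 4 calls held in every alternative fit tried, and in MI cDC2 Plscr1 was the highest member per kilobase (83.5 CPM per kb).

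Ifit2 also rose in all 4 cell types, and its neighbours Ifit1 and Ifit3 in fewer. The Ifit proteins bind viral RNA or the translation machinery. Ifit2, Ifit3 and Ifit1 lie in this order on the plus strand of chromosome 19, with Ifit2 at 34550694 to 34576419, 7.11 kb before Ifit3. In macrophages Ifit2 had 40.2, 44.2, 40.0 and 41.9 CPM in SS and 159.1, 77.6, 172.8 and 147.0 in MI, all MI values above all SS values (3.35-fold, adjusted p = 6.8e-05). In moDC the values were 41.8, 36.4, 35.5 and 47.3 in SS and 115.2, 63.9, 112.6 and 103.5 in MI (2.46-fold, adjusted p = 0.00281). In cDC2 they were 20.0, 17.7, 11.4 and 18.6 in SS and 54.1, 25.9 and 48.5 in MI (2.53-fold, adjusted p = 0.00223). MI replicate 2 was the lowest of the MI libraries for Ifit2 in each of these cell types. In cDC1 it overlapped SS, with 111.1, 55.6, 129.1 and 100.9 CPM in MI against 68.1, 31.5, 50.7 and 63.8 (1.85-fold, adjusted p = 0.0305), and this call was lost when any of 5 of the 8 libraries was left out.

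Ifit1 rose in cDC2 only among the tests passed, from 7.16, 9.05, 5.58 and 6.83 CPM in SS to 35.1, 19.0 and 28.4 in MI (3.84-fold, adjusted p = 7.2e-05), and no test of this rise against the other cell types passed. Its log2 difference was 0.72 in macrophages (adjusted p = 0.139), 0.65 in moDC (0.216) and 0.89 in cDC1 (0.0610). Ifit3 rose in cDC2, from 6.77, 7.03, 4.27 and 3.28 to 19.6, 9.32 and 11.8 CPM (2.54-fold, adjusted p = 0.00316), a call lost without MI cDC2 replicate 1. In macrophages Ifit3 had 25.7, 22.5, 23.5 and 24.7 CPM in SS and 38.4, 26.4, 48.4 and 66.1 in MI (1.86-fold, adjusted p = 0.0405), a call that held when 1 of the 8 libraries was left out and was lost for each of the other 7. Ifit3 has a close copy in the mouse genome, so its reads may have been split or lost in counting.

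Rsad2 rose in macrophages. It encodes viperin, a radical SAM enzyme that makes a chain terminator of viral RNA synthesis (chromosome 12, 26442746 to 26456452, minus strand). Its 4 SS macrophage libraries had 20.1, 25.9, 23.9 and 26.8 CPM and the MI libraries 64.6, 35.2, 62.2 and 72.4, without overlap (2.42-fold, adjusted p = 0.00338). Cmpk2, 12.75 kb away on the other strand and the maker of viperin's nucleotide substrate, had 34.6 CPM in SS and 59.5 in MI in the same cells (log2 difference 0.78, adjusted p = 0.0555), which did not pass. In the other 3 cell types the log2 difference of Rsad2 was 0.49 in moDC, -0.42 in cDC2 and 0.67 in cDC1, none past the test.

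The 2-5A synthetase family on chromosome 5 did not move together. Oas3 (120753098 to 120777661, minus strand) rose in macrophages from 40.7, 23.0, 33.1 and 61.3 CPM to 72.1, 72.0, 70.6 and 120.2 (2.12-fold, adjusted p = 0.00900), and the call was lost without MI macrophage replicate 4. Oas2, 3.25 kb from Oas3, fell in cDC1 from a mean of 1.73 to 0.508 CPM (adjusted p = 0.0285), with 0.514, 0.493, 0 and 1.02 CPM in MI, so this call rests on very few reads and the groups overlapped, and it was lost when any of 4 of the 8 libraries was left out. Oas1g fell in cDC2 from 15.5, 17.99, 16.4 and 12.4 to 9.32, 6.35 and 12.6 CPM (1.65-fold, adjusted p = 0.0478), with overlapping libraries, and the call was lost when any of 5 of the 7 libraries was left out. Oas1a had negative log2 differences in all 4 cell types, from -0.48 in cDC1 to -0.03 in moDC, and none passed. Oas1a and Oas1g are near copies whose reads counting may have divided.

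Oasl1 fell in cDC2 and moDC. It encodes a 2-5A synthetase-like protein without synthetase activity that is known to hold down translation of Irf7 mRNA (114923240 to 114937915, plus strand, chromosome 5). In cDC2 it went from 67.1, 86.4, 50.9 and 57.1 CPM in SS to 21.0, 10.9 and 16.4 in MI, a 4.06-fold fall without overlap (adjusted p = 2.2e-06). In moDC it went from 72.4, 111.1, 86.6 and 84.6 to 36.2, 39.7, 33.9 and 48.9, a 2.24-fold fall without overlap (adjusted p = 0.00145). Both calls held in every alternative fit tried. In macrophages the MI libraries had 49.5, 48.0, 50.4 and 75.3 CPM against 66.0 to 83.7 in SS (log2 difference -0.46, adjusted p = 0.236), and in cDC1 the mean was 62.7 against 93.5 CPM (-0.57, adjusted p = 0.113).

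Irf7 rose in macrophages and cDC1 and fell in cDC2. Macrophage values were 212.5, 225.2, 210.2 and 204.8 CPM in SS and 296.3, 319.7, 289.2 and 386.4 in MI (1.51-fold, adjusted p = 0.0407), and cDC1 values were 209.6, 316.2, 290.0 and 224.5 in SS and 414.5, 335.7, 397.6 and 416.6 in MI (1.504-fold, adjusted p = 0.0388). Neither pair of groups overlapped. In cDC2 the SS values of 236.2, 212.9, 170.9 and 115.8 CPM overlapped the MI values of 104.5, 80.3 and 129.6 (1.76-fold lower in MI, adjusted p = 0.00689). The macrophage call was lost when any of 6 of the 8 libraries was left out, the cDC1 call when any of 5 of 8 was, and the cDC2 call without MI cDC2 replicate 2. Summed CPM of 7 plasmacytoid dendritic cell markers, cells rich in Irf7, ran from 44.6 to 81.3 in SS cDC2 and from 81.4 to 84.1 in MI cDC2, with none of the 7 at 0 in SS and 2 at 0 in MI, and their part in the cDC2 fall was not tested. In cDC1 the same sum ran from 74.2 to 79.7 in SS and from 62.9 to 97.1 in MI, with 2 of the 7 markers at 0, and Siglech had 10.9 ± 4.42 CPM in SS and 24.1 ± 8.06 in MI (SD, n = 4), whose part in the rise of Irf7 was not tested. Irf9 and Stat2 did not pass in any cell type, and all their 8 intervals lay within a 2-fold change either way.

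Zbp1, a sensor of Z-form nucleic acid that can start necroptosis, had the same pattern of signs as Irf7. It lies at 173206612 to 173218923 on the minus strand of chromosome 2. In macrophages it went from 31.0, 43.3, 44.2 and 38.0 CPM to 49.8, 68.0, 74.5 and 94.4 (1.83-fold, adjusted p = 0.00687), and in cDC1 from 39.6, 39.7, 34.5 and 26.6 to 49.2, 55.0, 62.5 and 56.8 (1.59-fold, adjusted p = 0.0382). In cDC2 it went down from 54.0, 68.8, 42.2 and 39.6 to 25.9, 16.7 and 32.8 (2.03-fold, adjusted p = 0.00275). The SS and MI libraries of Zbp1 overlapped in none of these 3. In moDC the SS values were 50.1 to 66.4 CPM and the MI values 36.0 to 62.8 (log2 difference -0.30, adjusted p = 0.497). The cDC1 call was lost when any of 5 of the 8 libraries was left out.

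**Figure D4:**
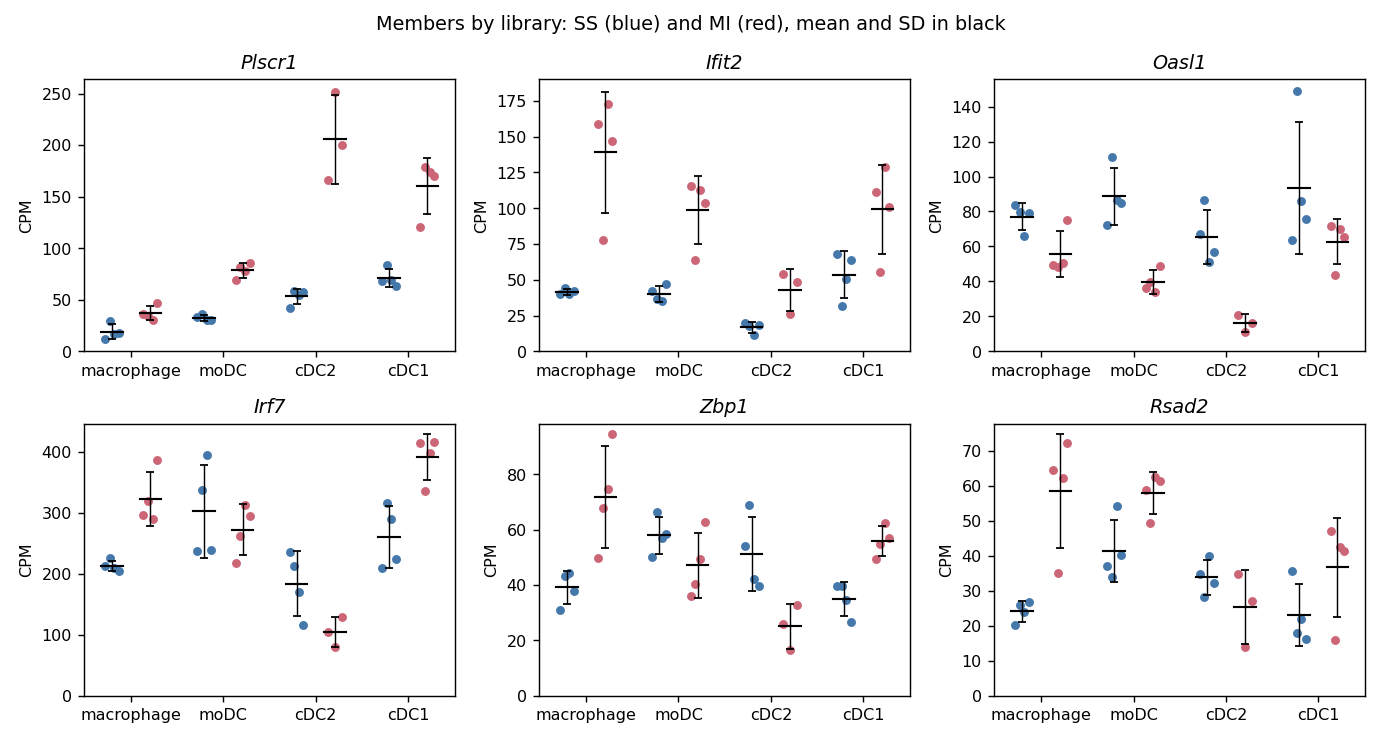
CPM of Plscr1, Ifit2, Oasl1, Irf7, Zbp1 and Rsad2 in each library of the 4 cell types (points, SS blue and MI red), with the mean and SD in black. Plscr1 is higher in MI in every cell type without overlap, and Zbp1 is higher in MI macrophages and cDC1 and lower in MI cDC2.

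Of the other sensors, Dhx58 (LGP2), a regulator of RIG-I and MDA5, rose in cDC1 from 51.1, 59.04, 57.8 and 64.2 CPM to 69.8, 78.4, 80.5 and 86.0 (1.36-fold, adjusted p = 0.0397), a call that held when 2 of the 8 libraries were left out in turn and was lost for the other 6. Ifi203 fell in cDC1 from 31.7, 29.2, 30.3 and 32.3 CPM to 24.98, 15.2, 16.8 and 20.6 (1.59-fold, adjusted p = 0.0202), and every MI value lay below every SS value, but the call was lost without MI cDC1 replicate 2 or 3. Trim30a, which restrains Toll-like receptor signalling, fell in cDC2 from 130.0, 121.3, 89.9 and 115.2 CPM to 78.4, 87.0 and 74.1 (1.43-fold, adjusted p = 0.0197), also without overlap, and this call was lost without any of 4 of the 7 libraries. Ddx58 and Ifih1 had positive log2 differences in all 4 cell types (0.25 to 0.70 and 0.12 to 0.42), none past the test.

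Several well-known interferon-stimulated genes did not pass in any cell type. Isg15, the ubiquitin-like modifier, had log2 differences from -0.21 in moDC to 0.48 in cDC1, and Usp18, which removes it, from -0.02 in moDC to 0.40 in cDC1. Bst2 ranged from -0.36 in moDC to 0.40 in cDC1, and Ifi44 from -0.37 in cDC2 to 0.26 in macrophages. Mx1 and Mx2, dynamin-like antiviral GTPases, had means of 1.86 to 12.7 CPM. Mx2 had the widest 95% interval of the 37 members in each of the 4 cell types, and it is annotated as a polymorphic pseudogene. Of the members that did not pass, the 95% interval excluded a 2-fold change either way for 21 of 30 in macrophages, 27 of 34 in moDC, 20 of 28 in cDC2 and 20 of 30 in cDC1. Dtx3l and Parp9, an E3 ligase and its partner, overlap by 682 bases on opposite strands, and since no source used here says whether counting used strand, their values are uncertain.

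Log2 differences of MI minus SS were positive in all 4 cell types for 11 of 37 members (29.7%), negative in all 4 for 8 (21.6%) and mixed for 18. Over all 13039 genes tested, 13.7% were positive and 18.5% negative in all 4. An F test across the 4 cell types found an MI effect that differed between them for 4 members, while 6.80% of all genes passed. It found 7 with DESeq2 and 7 with the replicate number within each state as a block. That block also raised the pairwise differences below from 10 to 17. Shares of all genes with DESeq2 or the block are not given, so these counts cannot be set against them. The 4 members of the main fit were Zbp1 (adjusted p = 1.6e-04), Irf7 (0.00121), Oasl1 (0.00805) and Rsad2 (0.0492). Between cDC2 and macrophages, 4 members had a lower and 1 a higher MI effect in cDC2, beside 3.05% and 1.44% of all genes: Zbp1 (log2 -1.90 ± 0.31 SE, adjusted p = 1.7e-04), Rsad2 (-1.70, 0.0119), Oasl1 (-1.56, 0.00412), Irf7 (-1.41, 0.00141) and, higher, Plscr1 (0.97, 0.0299). Between cDC1 and cDC2, 4 had a higher MI effect in cDC1 and 0 a lower one by edgeR (3 lower at unadjusted p under 0.05, 0 by DESeq2), beside 1.60% and 2.61% of all genes: Zbp1 (1.69, 7.1e-04), Oasl1 (1.45, 0.00827), Irf7 (1.4, 0.00152) and Trim30a (0.74, 0.0281). These comparisons share the cDC2 libraries. Oas3 alone passed between cDC1 and macrophages (-1.32, adjusted p = 0.0359), where 4.04% of all genes passed. No member passed between moDC and any other cell type, where 0.291% of genes passed against macrophages, 0.905% against cDC2 and 1.79% against cDC1, with 4, 6 and 5 members at unadjusted p under 0.05 in this order, and DESeq2 called 1, 0 and 0.

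Libraries differed in their level of the whole list within a group. MI replicate 2 was the lowest library for 24 of 37 members in cDC2, 22 in cDC1 and 20 in macrophages, and MI replicate 4 was the highest for 21 in macrophages and 18 in moDC. The summed CPM of the 28 effectors was 1770 ± 140 in SS macrophages and 2002 ± 222 in MI macrophages, with overlapping libraries, and 1452 ± 55.4 in SS cDC1 and 1729 ± 189 in MI cDC1, without overlap (SD, n = 4). In moDC and cDC2 the summed effectors differed by less than 1 SD between SS and MI.

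Markers of other cells differed between SS and MI as well. In macrophages the summed CPM of 5 classical monocyte genes was 344.4 to 518.8 in SS and 1840 to 2390 in MI, and that of 5 neutrophil genes was 78.6 to 184.4 in SS and 144.2 to 181.2 in MI. No gene of either list was at 0 there, and the part of these cells in the rise of Ifit2, Ifit3, Rsad2, Oas3, Irf7, Zbp1 and Plscr1 was not tested. The monocyte sum was also higher in every MI library of moDC (1448 to 2415 in SS, 2493 to 3382 in MI). The same held in cDC1 (1549 to 1933 in SS, 2285 to 2803 in MI), with 1 of the 5 genes at 0 in SS and in MI. In cDC2 it was 1930 to 2442 in SS and 2062 to 2635 in MI and overlapped. The SS median of the monocyte sum was 1858 in cDC1 and 2316 in cDC2, against 1651 in moDC and 464.6 in macrophages. The sum was thus not particular to the monocyte-derived groups. The part of any monocytes in the MI effects of moDC, cDC1 and cDC2 was not tested. Also in cDC2, the sum of 6 monocyte-derived cell and macrophage genes was 2805 to 3738 in SS and 1888 to 2394 in MI, with none at 0. The 5 neutrophil genes there summed to 33.1 to 121.5 in SS and 18.2 to 30.6 in MI, with 1 of the 5 at 0 in MI. Neither pair of ranges overlapped, and their part in the cDC2 falls of Oasl1, Irf7, Zbp1, Trim30a and Oas1g, and of Tlr7 and Tlr8 below, was not tested. In cDC1 the sum of 6 mural cell genes was 69.2 to 253.6 in SS and 0.102 to 2.76 in MI. In MI 2 of the 6 were at 0. Sums of 6 endothelial (33.9 to 168.6 in SS, 4.14 to 9.15 in MI), 6 fibroblast and 6 cardiomyocyte genes were also lower there without overlap. In moDC the endothelial sum was 81.9 to 265.1 in SS and 50.2 to 70.3 in MI. Mural, fibroblast, cardiomyocyte and B cell sums were also lower in MI moDC without overlap. The part of these sums in the cDC1 and moDC values was likewise not tested.

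The rest of the pathway was read from a list of 49 genes, all found, of which 32 passed the low-count filter. In MI, 3 rose and 2 fell in macrophages, 1 and 1 in moDC, 3 and 4 in cDC2, and 2 and 1 in cDC1. Of all genes tested, 4.01% rose and 3.37% fell in macrophages, 1.52% and 3.32% in moDC, 4.41% and 6.63% in cDC2, and 2.16% and 6.72% in cDC1. Interferon genes themselves had few reads or none. Of 19 ligand genes, 15 had 0 reads in all 31 libraries. For the shallowest library this allows up to 3 of its 9148624 reads, an interval that covers counting error only. Reads that mapping or counting may have lost between similar genes fall outside it. Ifnb1 had 111 reads in 12 libraries, 96 of them in SS and 15 in MI, and Ifng, the type II interferon, had 110 reads in 9 libraries, 110 in SS and 0 in MI. No test of either passed (lowest adjusted p = 0.176 and 0.162, both in cDC2). Ifna13 had 6 reads in 1 MI moDC library and Ifnk 11 reads in 6 libraries.

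Receptor genes were well expressed and did not pass. Ifnar1 had means of 87.9 to 203.5 CPM and Ifnar2 of 214.4 to 487.5 across the 8 groups, and their closest approach to the threshold was in cDC1, where the log2 difference was 0.44 for Ifnar1 (adjusted p = 0.0592) and 0.36 for Ifnar2 (0.0575). Jak2, a kinase of the interferon gamma and cytokine receptors, rose in cDC2 (91.4 to 209.3 CPM, adjusted p = 0.00119) and moDC (48.5 to 84.7 CPM, adjusted p = 0.0393). Among inhibitors of signalling, Socs3 rose in macrophages (520.7 to 773.5 CPM, adjusted p = 0.0132), Ptpn6 (SHP-1) rose in cDC2 (474.7 to 674.9 CPM, adjusted p = 0.00240) and Pias1 fell in macrophages (156.7 to 119.9 CPM, adjusted p = 0.0181).

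Genes that act before interferon is made changed in both directions. Tmem173, which encodes STING, the adaptor of cytosolic DNA sensing, rose in cDC1 from 111.0, 123.9, 132.3 and 112.5 CPM to 308.0, 408.3, 358.2 and 301.9 (2.87-fold, adjusted p = 3.1e-11). In cDC2 it rose from 135.7, 151.4, 150.7 and 163.0 to 259.1, 332.3 and 326.9 (2.04-fold, adjusted p = 1.7e-07). Trex1, the exonuclease that clears cytosolic DNA, fell in macrophages (175.7 to 124.7 CPM, adjusted p = 0.0243), moDC (158.8 to 112.9, 0.0340) and cDC2 (184.1 to 106.5, 5.4e-04). Ikbke, an IRF kinase, rose in macrophages from a mean of 1.96 to 27.8 CPM (adjusted p = 1.7e-04). The endosomal RNA receptor genes Tlr7 and Tlr8 fell in cDC2 (68.0 to 19.8 CPM, adjusted p = 0.00527, and 32.6 to 16.7, 0.00103), and Tlr8 rose in macrophages (63.5 to 113.8, 0.00166). Myd88, the adaptor of these receptors, rose in cDC1 (173.0 to 315.7 CPM, adjusted p = 1.0e-04). Irf5 fell in cDC2 (626.7 to 439.4 CPM, adjusted p = 0.00120) and cDC1 (893.1 to 724.6, 0.0482).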

How the data were processed

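RNA-seq of 31 sorted cell libraries was analysed. Per the labels' protocols, 4 ng of RNA was amplified with SMART-Seq v4 and read as 75 nt single reads. The submitters' processing notes name mm10 as the build and list TopHat2 2.1.0, SAMtools 0.1.18, Trimmomatic 0.35 and FastQC 0.11.4, with no order or settings. No source used here names the counter, its annotation or its strand setting. The authors deposited whole-number read counts per gene symbol. Entries for reads in no feature (6.42% to 16.9% of entries per library) and ambiguous reads (0.857% to 1.21%) stayed out of library sizes and tests.

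In R 4.3.3, edgeR 4.0.16 (TMM factors, filterByExpr with a minimum count of 10, robust quasi-likelihood test) fitted the 8 group means in 1 model. Benjamini-Hochberg adjustment ran over the 13039 genes kept, and adjusted p under 0.05 counted as passing. Standard errors were taken from the log2 difference and its F value. The fit was first tried on data simulated from its own fitted spread, for the macrophage MI effect only. That trial did not cover cDC2 or differences of MI effects between cell types. CPM values use the TMM sizes, and CPM per kb divides by the exon union of GENCODE M21 (GRCm38), which also gave positions. Replicate counts of every group varied beyond counting error (chi-square per gene of at least 10.83), so no library was counted as a repeat.

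The members, the other pathway genes and the markers were chosen with earlier results of these data known. Values by library are printed for members that passed an MI effect or the F test and for the 3 largest differences in each comparison of neighbouring cell types. Alternatives were DESeq2 1.42.0, other scalings, no filter, 2-group fits, a replicate block, subsets of SS libraries and leaving out each library. The block was the replicate number for MI effects and the replicate number within each state for the other comparisons. Leaving out all MI libraries numbered 2 or 4 was added after the data were seen. Shares of all genes that passed are given for the main fit only, not for the alternatives or for unadjusted p.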

Additional observations from a re-analysis of the deposited data

Results flagged for a closer look

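Among 133 combinations of a named member and a group of 4 libraries, 11 had 1 library far from the other 3. About 1 in 20 such combinations would be picked out by chance alone. In MI macrophages replicate 4 was far above the rest for Oas3 (120.2 CPM against 70.6 to 72.1), Oasl1 (75.3 against 48.0 to 50.4) and Irf9 (176.7 against 126.4 to 130.7), and replicate 3 for Ifi204 (109 against 75.6 to 81.2). In SS cDC1 replicate 4 was highest for Ifit1 (9.55 CPM against 5.78 to 6.35) and Irf9 (221 against 183.4 to 189.6). In SS cDC2 replicate 1 was highest for Oas3 (89.6 CPM against 56.4 to 62.0) and replicate 2 for Oasl2 (26.1 against 13.0 to 15.1). In SS moDC replicate 2 was highest for Dhx58 (68.6 CPM against 54.0 to 56.0). In MI cDC1 replicate 2 was lowest for Ifi204 (96.4 CPM against 118.2 to 122.5) and replicate 1 for Plscr1 (120.3 against 169.7 to 178.4).

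The MI effect differed between cell types, by edgeR's test of the difference itself, for 10 pairs of a member and a comparison. In cDC2 minus macrophages the log2 difference was -1.70 for Rsad2, -1.56 for Oasl1, -1.41 for Irf7, -1.90 for Zbp1 and 0.97 for Plscr1. In cDC1 minus macrophages it was -1.32 for Oas3. In cDC1 minus cDC2 it was 1.45 for Oasl1, 1.4 for Irf7, 1.69 for Zbp1 and 0.74 for Trim30a.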

How the results depend on the processing

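Of the 26 MI effects of named members, 26 still passed with DESeq2, with RLE scaling and with the replicate number as a block. The count was 24 with upper-quartile scaling or no filter and 21 in 2-group fits. It was 15 with only SS libraries 1 and 4 and 19 with only SS libraries 2 and 3. Both added after the data were seen, the fits without MI libraries 2 and without MI libraries 4 gave 18 and 19. Leaving out 1 library kept 147 of 199. None of these 26 effects changed sign in the alternatives named here. Counts of members moved by over 1.5 times as follows. With only SS libraries 1 and 4 the macrophage MI effect gave 3 and the cDC1 effect 4, with only SS libraries 2 and 3 the cDC1 effect gave 4, and without MI libraries 4 these gave 4 and 3. DESeq2 gave 7 members for the F test, and a fit of only the 2 groups gave 10 for MI moDC against macrophages. Leaving out 1 library gave 1 to 8 members for the MI effect in cDC1, 6 to 9 in cDC2, 4 to 7 in macrophages and 3 in moDC, 3 to 5 for the F test and 8 to 12 pairwise differences. For cell types it gave 15 to 20 (SS cDC1 against cDC2), 12 to 15 (SS cDC2 against moDC), 1 to 4 (SS moDC against macrophages), 19 to 23 (MI cDC1 against cDC2), 6 to 15 (MI cDC2 against moDC) and 1 to 4 (MI moDC against macrophages). The causes were not tested, and shares of all genes under these fits are not given. Scaling moved the median of all genes by less than 0.1 in log2.

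Replicate numbers were not taken as pairs, since no label ties a number to an animal or day. The chosen bar, that every pair correlate over 0.1, was also not met. Any low pair was enough to miss it, so this does not show that same-numbered libraries were unpaired. Deviations of same-numbered libraries correlated at -0.02 to 0.27 within SS (median 0.15, 15 of 24 pairs over 0.1). The range was -0.07 to 0.16 within MI (median 0.06, 2 of 21) and -0.06 to 0.15 between SS and MI (median -0.005, 1 of 15). Whether same-numbered SS libraries share a preparation was not tested. The share of reads outside any feature was 11.6% to 16.9% for SS numbers 1 and 4, above the 6.42% to 9.26% for 2 and 3. With the replicate number within each state as a block, counts were 8 for SS moDC against macrophages and 6 for MI moDC against macrophages. The same block gave 7 for the F test and 17 pairwise differences. No shares of all genes are given for it.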
